A study of Mus musculus with 14 samples.

Results

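Myh6 and Myh7 encode the alpha and beta heavy chains of cardiac myosin, and their poly(A) sites were read here across 14 mouse libraries of 3P-seq, a method that profiles poly(A) positions by sequencing the 3' ends at which transcripts are cleaved and tailed. Every poly(A) site on the strand of the genes was taken from a fixed stretch of chromosome 14 (build mm9) that spans both, and sites on the opposite strand were counted as antisense. Over the 14 libraries this stretch held 82 sites of 159969 in all. Of these, 55 lay on the - strand, from which both genes are transcribed, with 45 on the Myh6 side and 10 on the Myh7 side. The other 27 lay on the + strand, 25 of them on the Myh7 side. The choice used position only and no measured level.

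Kidney, lung, liver, heart, muscle and white adipose tissue each gave 1 library from wild-type mice and 1 from miR-22 knockout mice, and the labels give 129S5/SvEvBrd as the genetic background of all of them. The labels name the knockout allele but do not describe it further. Age, the number of animals behind a library and the muscle dissected are not stated in the labels. Embryonic stem cells (mESC) and the fibroblast line 3T3 gave 1 library each, with no genotype in the labels and the same background named. The series text says that nothing was replicated, so the 2 libraries of a tissue stood in as replicates (n = 2) once genotype was a term of the model. The p-values measure the spread between these libraries only. In edgeR this spread is taken largely from all tested sites pooled, and less from the site itself. A library held 2036838 to 6010465 tags, and the tag number of a site is the unit throughout. CPM below means tags per 1000000 tags of a library's tested sites after TMM scaling (a trimmed mean of ratios between libraries), and total CPM means tags per 1000000 of all its tags with no such scaling. No annotation of mm9 was used, so genes were named by the order and spacing of their 3' ends in RefSeq. The main Myh7 site lay 28759 nt from the main Myh6 site, against 28763 nt between the ends of the 2 genes in RefSeq. Exons, introns and UTRs were therefore not assigned to single sites, and no source used here says how tags matching both of these similar genes were placed; 4 of the 82 sites carried a value that is not whole.

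Myosin heavy chains are the motor proteins of the thick filament: they hydrolyse ATP and pull on actin. The alpha chain from Myh6 is the fast cardiac form that dominates the adult mouse ventricle, and the beta chain from Myh7 is the slower form of the fetal heart and of slow skeletal fibres. The genes lie head to tail, each with a microRNA in an intron, miR-208a in Myh6 and miR-208b in Myh7. Mhrt is a long non-coding RNA of the heart that starts between the genes and runs antisense into Myh7.

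The mature microRNAs are shown because they come from the introns of the same genes, beside the one that the knockout lacks, with the seed (bases 2 to 8) in capitals. All 3 sequences are RefSeq's (GRCm38.p6 table).
mmu-miR-208a-3p: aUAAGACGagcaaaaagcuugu
mmu-miR-208b-3p: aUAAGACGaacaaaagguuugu
mmu-miR-22-3p: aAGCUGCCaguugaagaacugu
Both miR-208 forms had the seed UAAGACG and were the same at 19 of 22 bases, with the changes G10A, A16G and C18U from 208a to 208b, counted from the 5' end. miR-22-3p had another seed, AGCUGCC. Mature microRNAs carry no poly(A) tail, so the libraries hold no value for them.

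Promoter sequences are shown for the sense gene with many tags, the sense gene with few and the antisense RNA Mhrt. Tags of both genes and of the + strand sites over Myh7 were concentrated in heart. The most abundant of those + strand sites lay near the Mhrt end in RefSeq, and the others were not assigned to Mhrt. Each run holds 250 bases before and 50 from the RefSeq start on, 5' to 3' on the transcribed strand, in GRCm38.p6: chr14:54966558-54966857 (- strand) for Myh6, chr14:54994500-54994799 (- strand) for the start of Myh7 nearer its 3' end of the 2 in the table, and chr14:54968537-54968836 (+ strand) for Mhrt. Capitals mark the matches found.
Myh6 promoter: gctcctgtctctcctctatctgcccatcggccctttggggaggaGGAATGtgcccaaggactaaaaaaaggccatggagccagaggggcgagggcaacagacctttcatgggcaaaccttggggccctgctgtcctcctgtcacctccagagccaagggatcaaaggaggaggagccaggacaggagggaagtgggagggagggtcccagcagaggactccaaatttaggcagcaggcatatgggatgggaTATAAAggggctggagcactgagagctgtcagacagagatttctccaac
Myh7 promoter: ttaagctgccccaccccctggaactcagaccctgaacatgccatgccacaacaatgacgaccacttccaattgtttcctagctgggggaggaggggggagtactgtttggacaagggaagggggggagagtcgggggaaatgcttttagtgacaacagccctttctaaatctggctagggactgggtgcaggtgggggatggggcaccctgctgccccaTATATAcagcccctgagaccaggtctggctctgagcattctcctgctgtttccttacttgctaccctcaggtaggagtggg
Mhrt promoter: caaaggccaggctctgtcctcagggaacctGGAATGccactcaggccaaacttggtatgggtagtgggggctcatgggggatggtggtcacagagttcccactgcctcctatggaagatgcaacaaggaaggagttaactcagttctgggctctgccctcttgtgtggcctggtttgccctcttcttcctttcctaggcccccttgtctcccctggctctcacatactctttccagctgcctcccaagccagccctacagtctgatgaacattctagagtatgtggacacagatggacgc
Both strands were searched for 2 forms of the TATA box, TATAAA and its relative TATATA, which reads the same on both strands and can overlap the first. The M-CAT core bound by TEAD factors was searched as CATTCC, the GATA factor motif as AGATAA, and the SRF motif as the CArG box. With the start as base 1, Myh6 held TATAAA from 2 to 7 and CATTCC on the opposite strand from -206 to -201. Myh7 held TATATA from -31 to -26, and Mhrt held CATTCC on the opposite strand from -220 to -215. Of 32851 RefSeq promoters of this length, 13.6% held TATAAA, 5.67% TATATA, 14.7% CATTCC, 11.2% AGATAA and 1.63% the CArG box. The matches describe these letters only.

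Myh6 was read almost entirely at 1 poly(A) site, chr14:55560742-55560827 on the - strand. In heart that site had 67976 tags in wild type and 43902 in the knockout, which made it the 4th and the 5th most abundant nuclear site of those libraries, with 2.61% and 1.74% of their nuclear tags. Lung was next, with 1658 tags in wild type and 2096 in the knockout. Liver had 34 and 0 tags, adipose tissue 0 and 16, kidney 9 and 0, and muscle 2 and 3, in wild type and knockout respectively. mESC had 5 tags and 3T3 had 0, where a count of 0 allows up to 0.708 total CPM. The heart libraries stood above every other library and the lung libraries above the remaining ones, with no overlap.

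**Figure D1:**
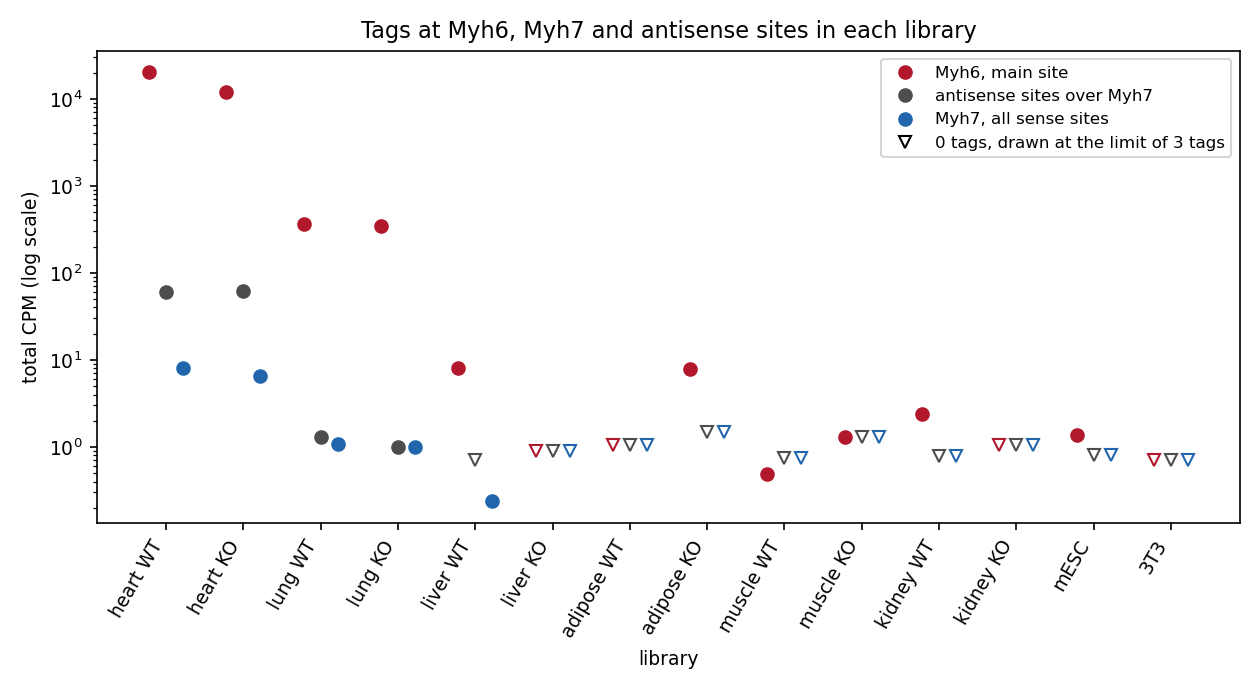
Total CPM, that is tags relative to all tags of a library (log scale), at the Myh6 main site, at all Myh7 sense sites and at all antisense sites over Myh7, in each of the 14 libraries (WT, wild type; KO, knockout). Open triangles stand for 0 tags, drawn at the limit of 3 tags. Myh6 is high in the heart libraries and next highest in the lung libraries, and the other 2 groups have tags in heart, lung and, for Myh7, 1 tag in wild-type liver.

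The Myh6 main site had 22633 ± 11523 CPM in heart (SD, n = 2) and was higher there than the mean of the other 5 tissues by 11.94 ± 0.45 (SE) on the log2 scale (adjusted p = 1.38e-31, edgeR). Of the 82 sites in the stretch, 6 passed the filter on low counts (7.32%), 2 on the - strand and 4 on the + strand. At an adjusted p under 0.05, 16.3% of all 23856 tested sites were called higher in heart, and so were all 6. Apart from the Myh6 main site, these had at most 3 tags in any library other than heart and passed the filter through heart alone, so their calls follow from the filter and nothing is read from that count. The other 76 sites were not tested. The heart difference of the main site became 13.39 without the wild-type library of liver, 12.90 without that of kidney and 13.47 without the knockout library of adipose tissue.

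The order of tissues at the Myh6 main site was heart, lung, liver, adipose tissue, muscle and kidney. Lung had 230.6 ± 19.2 CPM (SD, n = 2), liver 4.66 ± 6.59, adipose tissue 3.29 ± 4.66, muscle 1.43 ± 0.747 and kidney 1.06 ± 1.51. Heart exceeded lung by 6.51 ± 0.74 (SE) on the log2 scale (adjusted p = 1.48e-10, edgeR; 16.9% of all tested sites were higher in heart than in lung). Lung exceeded liver, since liver against lung gave -5.81 ± 0.76 (adjusted p = 2.52e-09, edgeR; 24.5% of sites were lower in liver). The 3 neighbouring pairs below lung did not differ beyond their spread: liver against adipose tissue gave 0.28 ± 0.84 (adjusted p = 0.843), muscle against adipose tissue -1.35 ± 1.06 (adjusted p = 0.392) and muscle against kidney 0.36 ± 1.16 (adjusted p = 0.854), all with edgeR. Over all tested sites these pairs gave calls in either direction at 38.7%, 26.6% and 39.2%.

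Lung carried a clear Myh6 signal in both genotypes. At the main site, lung stood above the mean of liver, adipose tissue and kidney by 6.57 ± 0.50 (SE) on the log2 scale (adjusted p = 4.19e-17, edgeR), a direction in which 24.8% of all tested sites were called. This difference rests on few tags in the lower tissues: it became 8.88 without the wild-type library of liver, 8.16 without that of kidney and 9.15 without the knockout library of adipose tissue. The size of the step down from heart depends on scaling: the heart level was 126.1 times that of lung in wild type and 66.7 times in the knockout by CPM, and 56.2 and 34.3 times by total CPM. Other heart muscle genes were read in lung as well. Tnnt2 (cardiac troponin T, the tropomyosin-binding subunit of the troponin complex) had 338 tags in wild-type and 494 in knockout lung, Nppb (the B-type natriuretic peptide) 20 and 28, and Nppa (the atrial natriuretic peptide) 7 and 3. Relative to the heart library of the same genotype, by total CPM, lung held 1.78% and 2.92% of the Myh6 level, 1.17% and 1.72% of Tnnt2, 0.412% and 0.778% of Nppb, and 1.67% and 0.787% of Nppa. Fewer cells of a type and less RNA per cell cannot be told apart in these bulk samples.

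In the other tissues, libraries with Myh6 tags also had tags of at least 1 of the same 3 heart genes. Summed over Tnnt2, Nppb and Nppa, the libraries with Myh6 tags had 23 tags (wild-type liver), 9 (knockout adipose tissue, Nppa at 0) and 3 (wild-type kidney). Wild-type muscle had 5 (Nppa at 0) and knockout muscle 2 (Nppb and Nppa at 0). The tissue libraries with 0 Myh6 tags had 1 (knockout liver, of Tnnt2), 0 (wild-type adipose tissue) and 1 (knockout kidney, of Tnnt2). Of the cell libraries, 3T3 had 0 Myh6 tags and 14 tags of these genes (7 of Tnnt2 and 7 of Nppb). Tags of these genes thus also stood in libraries with 0 Myh6 tags. The mESC library had 5 Myh6 tags and 2 of Nppb. The summed level of these markers was 5441 to 7437 total CPM in heart, 79.2 to 87.3 in lung and 0 to 5.47 in liver, adipose tissue and kidney. Outside heart, all 3 had tags in both lung libraries, in wild-type liver and, with 1 tag each, in wild-type kidney. The part of heart cells or of RNA carried over between samples in these values was not tested.

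**Figure D2:**
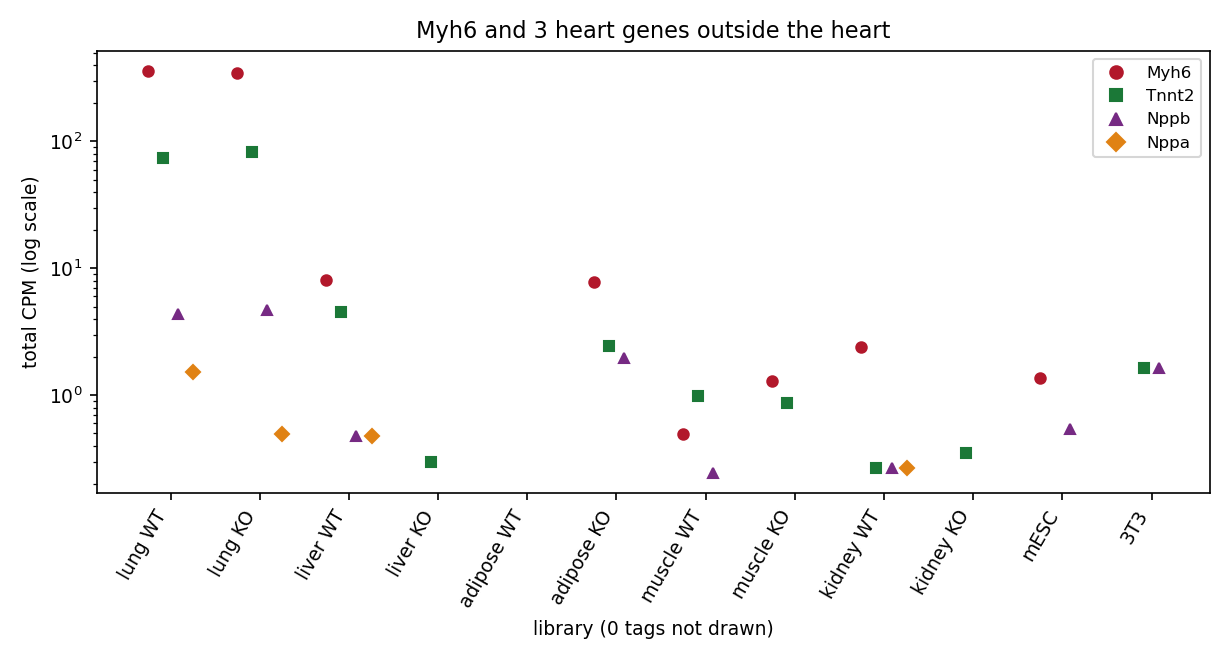
Total CPM, that is tags relative to all tags of a library (log scale), for the main sites of Myh6, Tnnt2, Nppb and Nppa in the 12 libraries other than heart (WT, wild type; KO, knockout; 0 tags not drawn). All 4 genes have tags in both lung libraries and in wild-type liver and kidney, and the knockout adipose library has tags of Myh6, Tnnt2 and Nppb. The liver, kidney and adipose libraries of the other genotype have 0 Myh6 tags.

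Muscle had hardly any cardiac myosin tags. Its 2 and 3 tags at the Myh6 main site put heart above muscle by 13.95 ± 1.05 (SE) on the log2 scale (adjusted p = 8.81e-17, edgeR), a direction in which 8.68% of all tested sites were called. The difference was 12.95 without the wild-type and 14.82 without the knockout library of muscle. Muscle was the lower side against the mean of liver, lung, adipose tissue and kidney, by a log2 difference of -2.52 ± 0.87 at the Myh6 main site (adjusted p = 0.0195, edgeR; 15.3% of all sites were lower). That call was lost with DESeq2 (-2.07, adjusted p = 0.492), without the genotype term (-2.51, adjusted p = 0.0823), and without the wild-type library of muscle (-1.49, adjusted p = 0.295), liver (-0.75, adjusted p = 1) or kidney (-1.33, adjusted p = 1) or the knockout library of adipose tissue (-0.67, adjusted p = 1). Taken singly at this site, muscle was called lower than lung only, at -7.44 ± 0.90 (adjusted p = 5.05e-10, edgeR). In that direction 23.6% of all tested sites were called. Against liver it gave -1.63 ± 0.99 (adjusted p = 0.192), against adipose tissue -1.35 ± 1.06 (adjusted p = 0.392) and against kidney 0.36 ± 1.16 (adjusted p = 0.854), all with edgeR. Of the 6 tested sites, 0 were called higher in muscle than in the other 5 tissues and 1 lower by edgeR. One and the same count, 1, had an unadjusted p under 0.05, and 0 were called higher under DESeq2. Over all tested sites 16.1% were higher and 12.3% lower in muscle. Apart from the Myh6 main site, the tested sites had 0 tags in both muscle libraries and passed the filter through heart alone. A call in muscle was thus out of their reach, and nothing is read from these counts.

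The muscle libraries were rich in other myosins. Sites of the fast skeletal myosin cluster on chromosome 11 matched RefSeq in spacing within 7 nt. Myh4 (fast IIB fibres) had 108356 ± 4169 CPM in muscle (SD, n = 2) from 245983 and 161263 tags, and 0 tags in both heart libraries. Myh1 (IIX fibres) had 3551 ± 15.6 CPM in muscle. Myh2 (IIA fibres) had 801 ± 1061 CPM there, from 111 tags in wild type and 2373 in the knockout. The 2 muscle libraries thus stood apart at this fibre-type marker, with 1 library per genotype. The genotype term over 6 tissues (log2 difference 3.37 ± 0.75, SE) rests almost entirely on this pair, so no p-value is read from it. Adipose tissue had 7 and 5 tags of Myh2 and lung 0 and 1, in wild type and knockout. In the cluster 33 sites were found, 7 were tested and 6 were higher in muscle than in the other 5 tissues, against 16.1% of all tested sites. The natriuretic peptide stretch had 11 sites, of which 4 were tested and 4 were higher in heart, and the Tnni1 to Tnnt2 stretch had 24, of which 6 were tested and 6 were higher in heart, against 16.3% of all. Sites of these stretches too can pass the filter through the tissue where they are high, so the labels are checked by the levels: Tnnt2 had 7682 ± 2675 CPM in heart and 1.56 ± 0.355 in muscle. Adipose tissue also held the fast myosins, at 376 to 423 summed total CPM for Myh4, Myh1 and Myh2. Tnni1 (the slow skeletal troponin I) could not be placed by spacing and gave no reading of slow fibres.

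Within Myh6, 43 minor sites lay upstream of the main site, 1.28 to 21.1 kb away and so inside the 26.1 kb that RefSeq gives the gene. They had 217 tags in wild-type and 126 in knockout heart. Of them, 28 had tags in both heart libraries, 10 in wild type only, 4 in the knockout only and 1 in neither, and the largest had 18 tags. A further site 514 nt downstream had 5 tags in heart. Tags outside the main site made up 0.323% of the Myh6 tags of wild-type heart (exact binomial 95% interval 0.281% to 0.368%) and 0.291% of the knockout's (0.243% to 0.346%). These intervals overlap, as do those of lung, at 0.600% (0.288% to 1.10%) in wild type and 0.0953% (0.0115% to 0.344%) in the knockout. Overlap does not show that shares are equal. In lung these were 10 and 2 tags, a knockout to wild-type ratio of 0.141 (0.0150 to 0.660) by TMM, with 1 library each. Only 1 minor site was tested, at chr14:55566992-55567042, with 16 and 11 tags in heart and 5.44 ± 2.56 CPM (SD, n = 2). Lung had 1 tag in each library there and the other libraries 0, so this site passed the filter through heart alone and its heart contrast is not given. Outside heart, 12 minor sites had 13 tags between them, 12 of those tags in lung.

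Myh7 was sparse in every library. Its 10 sense sites had 27 tags in wild-type and 24 in knockout heart, 5 and 6 in lung, 1 in wild-type liver, and 0 in the 9 other libraries, both muscle libraries among them. A count of 0 allows up to 1.36 CPM in wild-type and 1.96 CPM in knockout muscle. The summed level was 10.07 ± 3.05 CPM in heart and 0.679 ± 0.0814 in lung (SD, n = 2). Heart and lung did not overlap. The order below heart is not settled. The limit that 0 tags allow was above the mean lung level in both libraries of muscle, adipose tissue and kidney and in knockout liver. No Myh7 site passed the filter on low counts, so Myh7 was not tested site by site. The sum of its 10 sites was fitted as 1 row after the values were seen and passed the filter through heart, and its contrasts with heart are therefore not given.

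The main Myh7 site, at the end of the gene, held only 17 tags in all, 5 and 2 in heart and 5 and 5 in lung. In heart the other 9 sites held more, 22 tags in each library, up to 50.2 kb from the Myh6 main site and thus inside the 23.9 kb of Myh7. In lung they held 0 and 1. Myh7 made up 0.0396% of the Myh6 and Myh7 tags of wild-type heart (exact binomial 95% interval 0.0261% to 0.0576%) and 0.0545% of the knockout's (0.0349% to 0.0810%), that is 1 Myh7 tag for 2526 and 1835 Myh6 tags. In lung the share was 0.299% (0.0971% to 0.696%) and 0.285% (0.105% to 0.620%). The lung interval lay above the heart interval in both genotypes. These intervals cover counting error only, since the tags carry no molecular identifiers and may repeat a molecule, and the lung shares rest on 5 and 6 tags. From both main sites alone the heart shares were 0.00736% and 0.00456%.

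Most tags on the Myh7 side of heart were antisense. The 25 + strand sites there had 205 tags in wild-type and 226 in knockout heart, 6 and 6 in lung and 0 in the other 10 libraries. Antisense tags were 88.4% of the Myh7-side tags in wild-type heart (exact binomial 95% interval 83.5% to 92.2%) and 90.4% in the knockout (86.1% to 93.8%), or 7.59 and 9.42 antisense tags for each sense tag. In lung they were 54.5% (23.4% to 83.3%) and 50% (21.1% to 78.9%) from 11 and 12 tags, and each of these intervals ended below that of heart in the same genotype. The summed antisense level was 83.7 ± 12.9 CPM in heart and 0.752 ± 0.186 in lung (SD, n = 2). On the Myh6 side the + strand was nearly empty, with 2 sites: 1 had 1 and 2 tags in wild-type and knockout heart, and the other had 2 and 1 in kidney.

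The antisense sites spread over the stretch from 28.8 to 52.3 kb from the Myh6 main site. The site at chr14:55593240-55593356 had the most tags, 38 and 74 in wild-type and knockout heart and 2 in wild-type lung. It lay 32533 nt from the Myh6 site, within 105 nt of the spacing that RefSeq gives for the 3' end of Mhrt. A site at chr14:55609947-55610019, toward the Myh7 start, had 58 and 27 tags in heart and 3 and 2 in lung. Its neighbour at chr14:55609844-55609931 had 20 and 29. The site at chr14:55595050-55595085 had 27 and 10, the one at chr14:55608131-55608166 had 11 and 13, and those at chr14:55594377-55594517 and chr14:55602913-55602944 had 10 and 10, and 7 and 14. No more than 3 tags stood at any of these 7 sites in a library other than heart. The 4 that were tested passed the filter through heart alone, so their heart contrasts are not given.

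**Figure D3:**
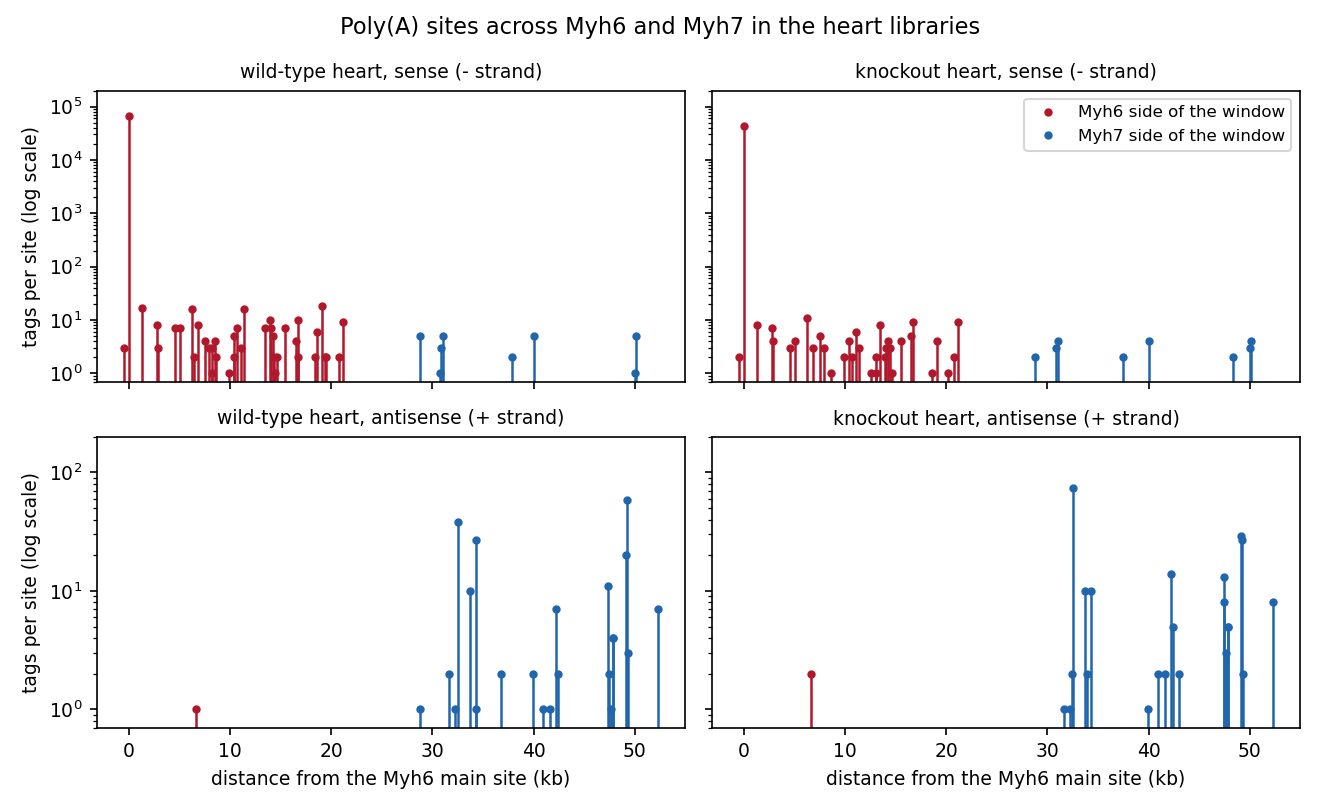
Tags per site (log scale) in wild-type and knockout heart against the distance from the Myh6 main site in kb, for - strand sites (top) and + strand sites (bottom); colour marks the side of the stretch. The Myh6 main site at 0 stands at 67976 and 43902 tags, minor sense sites stay at 18 tags or below, and + strand sites lie almost entirely on the Myh7 side, with up to 74 tags.

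The genotype comparison asked whether loss of miR-22 went with a change at these sites over tissues. At the Myh6 main site the knockout differed from wild type by -0.68 ± 0.46 (SE) on the log2 scale over 6 tissues (adjusted p = 0.851, edgeR), lower in 4 tissues (heart, liver, lung, kidney) and higher in 2 (muscle, adipose tissue). Of the 6 tested sites 0 were called by edgeR, where 0.344% of all sites were; 1 had an unadjusted p under 0.05, against 1663 of all sites. That site, at chr14:55609947-55610019, differed by -1.42 ± 0.56 (adjusted p = 0.51, edgeR). It had 58 and 27 tags in heart, 3 and 2 in lung and 0 elsewhere. Apart from the Myh6 main site, the tested sites had at most 3 tags in any library other than heart. Their genotype differences therefore rest on the heart pair, 1 library against 1. Without the adipose pair the Myh6 difference became -1.24 and was called (adjusted p = 0.0313, edgeR); the fits without another pair gave -0.13 to -0.89 and no call. The 95% interval of the difference, -1.60 to 0.24, includes no change.

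Within heart, the knockout library had fewer Myh6 tags. The ratio of knockout to wild type at the main site was 0.471 by TMM (exact binomial 95% interval 0.465 to 0.476) and 0.591 by library totals, with 1 library each and so no replicate check. The minor Myh6 sites gave 0.423 (0.337 to 0.529). Other heart genes were lower in the same library by TMM: Nppb at 0.453, Nppa at 0.555 and Tnnt2 at 0.605. Mitochondrial tags were 22.6% of the wild-type and 31.3% of the knockout heart library. With TMM taken over nuclear sites only, the ratio at the Myh6 main site was 0.477. Their part in these ratios was not tested further. Myh7 gave 0.648 (0.358 to 1.17), which includes no difference.

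Antisense tags gave a higher ratio than Myh6 in the same pair of libraries. Their knockout to wild-type ratio in heart was 0.803 (exact binomial 95% interval 0.662 to 0.975) by TMM and 1.01 by library totals, so the direction depends on scaling. Counted per 1000 Myh6 main-site tags, where scaling cancels, they were 3.02 (2.62 to 3.46) in wild-type and 5.15 (4.50 to 5.87) in knockout heart. The minor Myh6 sites were at 3.19 (2.78 to 3.65) and 2.87 (2.39 to 3.42), and Myh7 at 0.397 (0.262 to 0.578) and 0.547 (0.350 to 0.814). Only the antisense intervals of these 3 are apart. Antisense sites also moved unequally. The site at the Mhrt end held 18.5% (13.5% to 24.5%) of antisense tags in wild-type and 32.7% (26.7% to 39.3%) in knockout heart. The site at chr14:55609947-55610019 held 28.3% (22.2% to 35.0%) and 11.9% (8.02% to 16.9%). Each of these compares 2 libraries, not the genotypes.

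**Figure D4:**
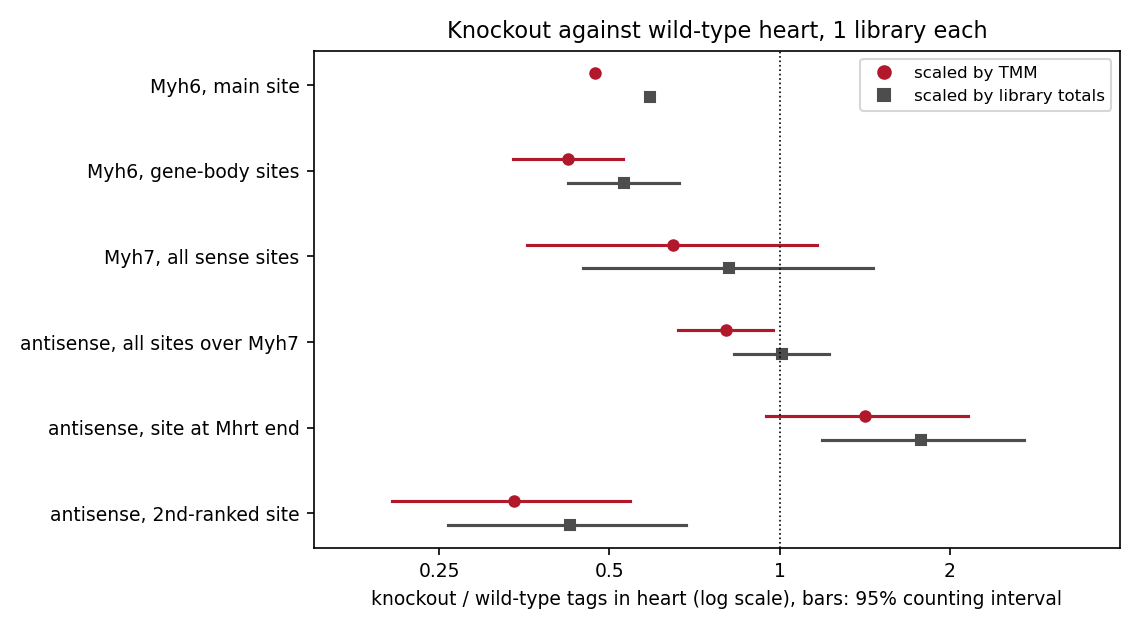
Ratio of knockout to wild-type tags in heart (log scale) with exact binomial 95% intervals, scaled by TMM (circles) or by library totals (squares); the dotted line marks no difference. The Myh6 main site (0.471 by TMM, interval narrower than the symbol) and its gene-body sites lie below 1 under both scalings, antisense tags as a whole lie at 0.803 or 1.01, and the second most abundant antisense site (bottom) lies below 1 under both.

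In lung the knockout to wild-type ratio at the Myh6 main site was 0.889 (exact binomial 95% interval 0.833 to 0.949) by TMM and 0.969 by library totals. In muscle it was 2.17 (0.248 to 25.9), from 2 and 3 tags. The sparse tissues did not share a direction. With 3 tags in place of 0, the Myh6 main site was 9.73-fold lower in knockout liver and 2.63-fold lower in knockout kidney. It was 7.01-fold higher in knockout adipose tissue by the same floor. These folds leave out the counting error of the other library. By TMM, the nearer end of the exact binomial 95% interval was 7.49-fold for liver, 1.73-fold for kidney and 5.07-fold for adipose tissue.

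Among 7999 sites outside the stretch with a mean of at least 10 CPM, the one most like the Myh6 main site over the 12 tissue libraries was the main Tnnt2 site at chr1:137748608-137748923, with a Pearson correlation of log2(CPM + 1) of 0.989. The next were sites at chr10:53063972-53064145 (0.984), chr2:90976479-90976672 (0.972), chr10:53065679-53065830 (0.970) and chr7:4469904-4470011 (0.970), to which no gene name was given. Each of these had its highest mean CPM in heart and its next highest in lung. The correlations describe 12 libraries that share tissues and scaling. For the Myh7 main site, with 17 tags, the highest was 0.947, at chr1:162186697-162186827, too sparse to read.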

How the data were processed

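3P-seq was run on 14 mouse libraries of total RNA. CASAVA 1.7, Bowtie (no version named) and the build mm9 are listed per the submitters' processing notes. The deposited values are estimated counts: unscaled tag numbers at each poly(A) site, of which 1.21% to 5.79% in a library are not whole. Overlapping or touching sites of a strand were merged over libraries, summed and rounded. Positions follow the deposited files, whose track offset of 1 was not applied.

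Sites were filtered with filterByExpr (minimum count 10), scaled by TMM and fitted with edgeR 4.0.16 in R 4.3.3 (quasi-likelihood) with terms for tissue and genotype on the 12 tissue libraries, with 5 residual degrees of freedom and a biological coefficient of variation of 0.31. The median prior degrees of freedom, which weigh the spread pooled over sites, were 55.6. Benjamini-Hochberg adjustment ran over all 23856 tested sites. DESeq2 1.42.0, other scalings, no filter, merging within 24 nt, other model terms and leaving out libraries or pairs were alternatives. A floor of 3 tags stood for 0, and intervals are exact binomial. Values are printed for the main sites and for other sites with at least 20 tags, and likeness lists hold 5 sites. The genes, lists and comparison stretches were chosen with earlier results of these data known. In simulated counts with 200 of 23856 sites changed, changes of 2-fold, 4-fold and 8-fold were recovered at 2%, 83.5% and 97% for heart against the other tissues. For genotype the rates were 17.5%, 96% and 100%, and for heart against muscle 0.5%, 44.5% and 89%. For lung against liver, adipose tissue and kidney they were 1.5%, 90.5% and 100%. The changed sites were drawn from those with a mean of at least 20 tags, so these rates do not cover sparser sites.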

Additional observations from a re-analysis of the deposited data

Results flagged for a closer look

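The mESC library had 5 tags at the Myh6 main site, in data outside the tissue comparisons; the 3T3 library had 0. Of the heart genes Tnnt2, Nppb and Nppa, mESC had 2 tags, both of Nppb, while 3T3 had 7 of Tnnt2 and 7 of Nppb.

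Genotypes went in opposite directions at the Myh6 main site between single tissue pairs, and none of these differences was tested. The knockout was lower in heart (log2 ratio -1.09), in lung (-0.17), in liver (34 wild-type tags against 0) and in kidney (9 against 0), while in adipose tissue it was higher (0 wild-type tags against 16). Each tissue has 1 library per genotype. The heart markers Tnnt2, Nppb and Nppa summed to 23 tags in wild-type and 1 in knockout liver, 3 and 1 in kidney, and 0 and 9 in adipose tissue.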

How the results depend on the processing

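Heart against the mean of the other 5 tissues, heart against muscle, and lung against liver, adipose tissue and kidney kept their direction and call at the Myh6 main site under all 7 other settings and 12 leave-one-out fits each; leaving out a library gave log2 differences of 11.64 to 13.47, 12.95 to 14.82 and 6.18 to 9.15. Muscle against the mean of liver, lung, adipose tissue and kidney was called under 5 of 7 settings, but not with DESeq2 (-2.07) or without the genotype term (-2.51). Its log2 difference ranged from -3.38 to -0.67 without a library. Genotype ranged from -1.24 to -0.13 without a tissue pair. Sites of the stretch called higher in heart numbered 6 of 6 tested, against 16.3% of all tested sites. They were 39 of 82 with no filter on low counts (which tests sparser sites) and 3 of 6 with DESeq2. Without a library 4 to 13 were called, which was every site tested in each fit, so this range follows the filter. In muscle 0 were called higher throughout. Nothing is read from these counts, since nearly all of these sites had tags almost only in heart. Fits of the summed Myh7 sites were added after seeing the data, and nothing is read from them. Main sites only moved the Myh7 share of heart to 0.00736% in wild type and 0.00456% in the knockout, and the heart ratio of Myh7 to 0.291. The heart ratio of Myh6 was 0.591 by library totals and 0.477 by TMM over nuclear sites, the lung ratio 0.969 by library totals, and the antisense ratio turned from 0.803 to 1.01 by library totals. Depth limits Myh7, which had 63 tags in all. The genotype fit already pairs the libraries of a tissue through its tissue term; without that term the Myh6 difference was -1.08 and was not called. The labels give no replicate numbers, so no other pairing was fitted.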
